A study of Mus musculus with 9 samples.

Results

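Predicted mouse genes that carry a Gm number in place of a name were examined in liver RNA sequencing of 5 Msr1-/- and 4 wild-type mice. The members were chosen by their measured level, as the rows of the deposited table whose symbol is Gm followed by digits only and whose mean over the 9 livers was 50 or more normalised read counts, with Gm20305 and Gm16348 left out. This gave 156 genes of the 2143 Gm-numbered genes and 17442 genes in the table. All 9 mice were male C57BL/6 animals, labelled as having non-alcoholic fatty liver disease, fed a high fat-cholesterol diet for 16 weeks. The Msr1-/- mice lack macrophage scavenger receptor 1, a surface receptor with which macrophages take up modified lipoproteins. The labels give no age, no other allele, and no mice on a control diet, so each comparison is between genotypes on the same diet. Each mouse gave 1 library of whole liver, and values are normalised read counts with SD over n = 5 Msr1-/- and n = 4 wild-type livers unless stated otherwise.

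Mouse annotation gives a Gm number to a locus that was predicted or sequenced before anyone described it. The class is mixed: long noncoding RNAs, transcripts on the strand opposite a known gene, coding genes without a name, and pseudogenes. A processed pseudogene is an intron-free copy of a messenger RNA that was pasted back into the genome, and highly expressed housekeeping genes such as those of ribosomal proteins have many of them. An unprocessed pseudogene is a decayed duplicate that still has the introns of its parent. Reads from a coding messenger RNA and from a close copy can be hard to tell apart, so a count at a copy does not by itself show that the copy is transcribed.

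Of the 156 genes, 148 were found by symbol in GENCODE M21, whose assembly GRCm38 corresponds to the mm10 build named by the submitters, on 20 chromosomes. Processed pseudogenes were the most frequent kind with 41 genes, followed by 29 antisense transcripts, 23 long intergenic noncoding RNAs, 20 protein-coding genes and 9 processed transcripts. There were 7 regions still to be tested by experiment (TEC in the annotation), 6 unprocessed pseudogenes, 4 transcribed processed and 4 transcribed unprocessed pseudogenes, 3 sense intronic transcripts, 1 bidirectional promoter RNA and 1 entry of the miRNA type. The other 8 symbols were not matched there. Exactly 1 annotated exon was found for 73 genes. Their means ranged from 50.3 to 3386 with a median of 99.8, 78 lay under 100 and 15 reached 500. The last gene inside the minimum was Gm12258 with a mean of 50.3, and the first outside it was Gm12781 with 47.1. At least 3 reads were counted in each liver for each of the 156 genes. The minimum was set on the mean over both genotypes, so 14 genes had an Msr1-/- mean under 50 and 14 others a wild-type mean under 50. Such genes passed through the genotype where they were higher, so their tests are not independent of the choice. Examples named below are Gm45254, Gm6652, Gm37729, Gm12696 and Gm12258 (wild-type mean under 50). Others are Gm45526, Gm5644 and Gm5586 (Msr1-/- mean under 50). Together the 156 genes took between 0.163% and 0.225% of the 15006773 to 18238932 reads per liver.

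Several features of the livers bear on all results. Wild type 3 stood apart from the other 8 livers, with a score of 88.7 on the first principal component of all genes against -27.6 to 8.3 in the others, and it was the lowest of the 9 livers for 82 of the 156 genes and the highest for 8. Msr1 stood at 157, 153, 209, 186 and 172 in Msr1-/- livers, against 256, 202, 460.5 and 194 in wild-type livers, so the genotypes overlapped (log2 fold change -0.58, limma adjusted p = 0.264). That count covers the whole gene and does not check the deleted part. All 8 Kupffer cell markers, genes of the resident liver macrophage, had negative fold changes, with summed values of 4619 to 6254 in Msr1-/- and 7689 to 16437 in wild-type livers. The 8 hepatocyte markers summed to 1758383 to 2414289 in Msr1-/- and 1359749 to 2107296 in wild-type livers. The lists of lipid-associated macrophages (744 to 970 in Msr1-/- and 1485 to 7050 in wild-type livers), B and plasma cells (199.96 to 359 and 555 to 924), neutrophils (55.1 to 112 and 129 to 275) and cholangiocytes (249.5 to 545 and 619 to 1675) were likewise lower in Msr1-/- livers without overlap of their sums, in the same order of genotypes. Sums of T cells (26.5 to 91.3 in Msr1-/- and 55.9 to 92.0 in wild-type livers) overlapped between genotypes. So did those of stellate cells (2969 to 3592 and 3372 to 7338) and sinusoidal endothelium (1857 to 2219 and 1952 to 2178). The lipid-associated macrophage and cholangiocyte lists both hold Spp1, so their sums are not separate. Wild type 3 was the highest liver for the Kupffer cell, lipid-associated macrophage, neutrophil, cholangiocyte and stellate cell sums. No marker of the Kupffer cell, hepatocyte, lipid-associated macrophage or B and plasma cell lists was at 0 in any liver, and 1 of the 5 cholangiocyte markers was. In whole tissue, fewer cells of a type and less RNA per cell cannot be told apart, and the part of these marker differences in the results below was not tested.

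Genotype was tested with limma on log2(value + 1) over all 12937 genes with a mean of 10 or more, with Benjamini-Hochberg adjustment over all of them, and a gene was called at an adjusted p under 0.05. On this scale the change of low genes is understated. Of the 156 genes, 4 were called higher in Msr1-/- livers and 0 lower, whereas 0.665% of all genes tested were called higher, 0.703% lower and 1.37% in either direction. At an unadjusted p under 0.05 there were 17 higher and 8 lower, against 7.3% and 8.0% of all genes, and the total of 25 compares with 15.3%. By edgeR the called genes were again 4 higher and 0 lower, against 0.572% and 0.858% of all genes, and by DESeq2 there were 7 higher and 2 lower, against 2.37% and 3.6% of all genes. The genotypes did not overlap for 10 of the 156 genes, 8 higher and 2 lower, against 7.29% of all genes tested. Of the 4 called genes, Gm35986 and Gm5524 are annotated as noncoding, Gm43667 is a TEC region and Gm45254 was not matched to the annotation.

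Gm45254 showed the largest difference of the 156 genes. It stood at 145, 186, 125, 174 and 187 in Msr1-/- livers, against 18.2, 27.4, 17.3 and 25.6 in wild-type livers. Each Msr1-/- liver was several times above each wild-type liver. The means were 164 ± 27.4 in Msr1-/- and 22.1 ± 5.15 in wild-type livers, a 7.17-fold higher fitted value (log2 fold change 2.84, SE 0.20, limma adjusted p = 0.000132). The gene reached the mean of 50 through its Msr1-/- values alone. It was called without any 1 of the 9 livers, with log2 fold changes between 2.74 and 2.95. Gm45254 was not matched to the annotation by symbol, and its position, its kind and its distance from Msr1 were not analysed here.

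Gm35986 is annotated as an antisense transcript of 4 exons at chromosome 3, 129527467 to 129532388, on the minus strand. It begins inside the first bases of Elovl6, a gene for an elongase of long-chain fatty acids, which runs the other way from 129532355, so that 34 exon bases are shared. The 300 bases around its start are shown because they overlap the start of Elovl6. They come from RefSeq on GRCm38.p6, chr3:129532339-129532638, minus strand, and hold 250 bases before the start site and 50 after it, in lower case throughout since no searched motif was found.
Gm35986 promoter: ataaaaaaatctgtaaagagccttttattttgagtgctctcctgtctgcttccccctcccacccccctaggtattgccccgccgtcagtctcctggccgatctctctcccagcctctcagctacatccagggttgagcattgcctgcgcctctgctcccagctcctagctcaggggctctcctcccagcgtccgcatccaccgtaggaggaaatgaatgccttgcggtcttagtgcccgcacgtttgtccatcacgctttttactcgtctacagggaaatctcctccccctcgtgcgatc

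The GC content of that window was 56.3%. The letters TATAAA were searched on both strands, and 13.6% of 32851 RefSeq mouse promoter windows of the same length hold them. The letters CCAAT are held by 37.4% of these windows, and the letters GGGCGG by 35.7%, and none of these motifs was found in this window. RefSeq lists a second start of Gm35986, at 129531997 and 391 bases from the first, whose window holds CCAAT. RefSeq windows were found for 44 of the 156 genes. Gm35986 stood at 142, 173, 134, 151 and 100.2 in Msr1-/- livers, against 36.4, 62.2, 51.0 and 74.9 in wild-type livers. The genotypes did not overlap, with Msr1-/- 5 and wild type 4 the nearest. The means were 140.1 ± 26.7 in Msr1-/- and 56.1 ± 16.4 in wild-type livers (2.51-fold, log2 fold change 1.33, SE 0.23, limma adjusted p = 0.0236). Elovl6 itself stood at 1728 ± 772 in Msr1-/- and 1465 ± 549 in wild-type livers and overlapped between genotypes (log2 fold change 0.21, SE 0.32, limma adjusted p = 0.844). The strand setting of the counting is not given in the sources used here. Reads of an antisense gene and of its partner therefore cannot be told apart where their exons overlap. Sharing no exon base does not settle this either, since reads from introns of a partner were not examined. Gm35986 lost its call without Msr1-/- 1, 2, 3 or 4, with limma adjusted p up to 0.0715 and log2 fold changes from 1.14 to 1.48 over the 9 runs with a liver left out.

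Gm5524 is a long intergenic noncoding RNA of 2 exons at chromosome 1, 27884046 to 27902396, on the plus strand. The closest coding gene in the table, Phf3, lies 2899943 bases away, and no coding transcript matched its sequence. Its start is shown beside that of Gm35986 because the intervals differ in composition. The window is chr1:27883796-27884095 on GRCm38.p6, plus strand, from RefSeq, with a GC content of 36% and none of the 3 motifs.
Gm5524 promoter: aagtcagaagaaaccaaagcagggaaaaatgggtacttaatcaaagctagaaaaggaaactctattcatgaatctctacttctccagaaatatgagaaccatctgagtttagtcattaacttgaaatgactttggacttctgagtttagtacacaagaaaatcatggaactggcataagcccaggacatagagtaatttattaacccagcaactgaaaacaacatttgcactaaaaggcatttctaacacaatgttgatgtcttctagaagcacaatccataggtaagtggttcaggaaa

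Gm5524 stood at 362, 303, 338, 389 and 346 in Msr1-/- livers, against 259.9, 196, 209 and 200.2 in wild-type livers. The Msr1-/- livers lay close together and all above the wild-type livers, of which wild type 1 was the highest. The means were 348 ± 31.7 in Msr1-/- and 216 ± 29.5 in wild-type livers (1.61-fold, log2 fold change 0.69, SE 0.12, limma adjusted p = 0.0281). Gm43667, a single-exon TEC region at chromosome 3, 34054335 to 34055429, minus strand, lies within the span of Fxr1 on the opposite strand and shares no exon base with it. Fxr1 encodes an RNA-binding protein of the fragile X family. Gm43667 stood at 197, 193, 159, 221 and 195 in Msr1-/- livers, against 113, 124, 62.8 and 93.0 in wild-type livers. The genotypes did not overlap, and wild type 3 was the lowest liver. The means were 193 ± 22.2 in Msr1-/- and 98.4 ± 27.1 in wild-type livers (log2 fold change 1.00, SE 0.20, limma adjusted p = 0.0372), while Fxr1 stood at 577 ± 34.1 in Msr1-/- and 627 ± 81.3 in wild-type livers (limma adjusted p = 0.715). Gm5524 was called in 2 of the 9 runs with a liver left out, with adjusted p from 0.017 to 0.0801. Gm43667 was also called in 2, with limma adjusted p from 0.0128 to 0.0962, so neither call held in most of these runs.

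**Figure D1:**
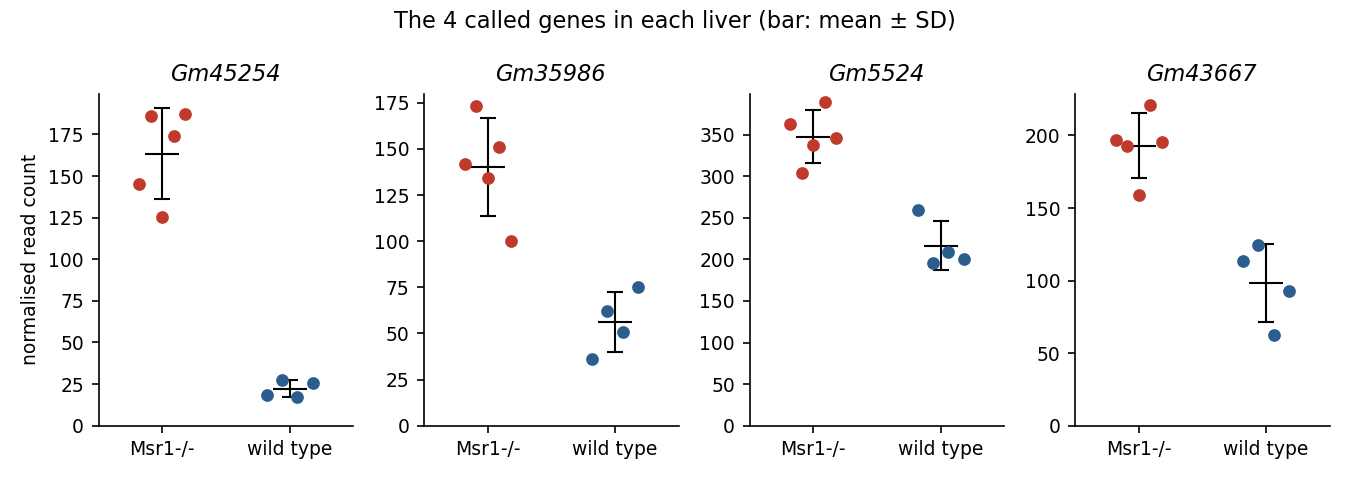
Normalised read counts of the 4 called genes in each liver, with 5 Msr1-/- livers on the left and 4 wild-type livers on the right of each panel, and bars at the mean with SD. Gm45254 lies between 125 and 187 in Msr1-/- and between 17.3 and 27.4 in wild-type livers, and the genotypes overlap in no panel.

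Antisense transcripts were the second most frequent kind, and 20 of 29 had a positive fold change (median 0.25 on the log2 scale, against 0.02 with 52.7% positive over all genes tested). Without wild type 3 there were 16 positive of 29 with a median of 0.09, and without wild type 4 there were 26 with a median of 0.28. Gm35986 was the 1 called by limma and by edgeR. A coding gene on the opposite strand was listed for 26 of them and tested for 24, with the same sign of fold change in 13 pairs and 0 partners called by limma or edgeR. By limma 6 partners had an unadjusted p under 0.05, and DESeq2 called 3. Exon bases were shared in 18 of the 26 pairs. The 6 further antisense genes named here, by smallest p, missed the threshold by limma and edgeR, and 2 of them, Gm11844 and Gm16157, were called by DESeq2 (adjusted p = 0.0282 and 0.0462). Gm11844 lies opposite Necab1, a gene for a calcium-binding protein, at chromosome 4, 15022582 to 15031987. It stood at 96.4, 76.3, 104, 73.7 and 88.2 in Msr1-/- livers, against 62.0, 38.0, 58.1 and 58.8 in wild-type livers. The genotypes did not overlap (log2 fold change 0.70, SE 0.19, limma adjusted p = 0.0981). Necab1 had means of 799 ± 104 in Msr1-/- and 598 ± 27.8 in wild-type livers (log2 fold change 0.41, adjusted p = 0.113 by limma), and no exon base is shared.

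Gm16157, opposite Fam169b on chromosome 7, had means of 241 ± 56.2 in Msr1-/- and 151 ± 31.1 in wild-type livers (log2 fold change 0.66, limma adjusted p = 0.139). Fam169b stood beside it with 322 ± 55.9 in Msr1-/- and 203 ± 54.4 in wild-type livers (log2 fold change 0.69, limma adjusted p = 0.112), with 78 exon bases shared. Gm20319, opposite Il1rap, the gene of the interleukin 1 receptor accessory protein, shares 552 of its exon bases with it. Gm20319 stood at 1042, 1055, 1016, 1165 and 1035 in Msr1-/- livers, against 971, 919, 561 and 827 in wild-type livers. The genotypes did not overlap, and wild type 3 was far below the other livers (log2 fold change 0.40, limma adjusted p = 0.230). With that liver left out the log2 fold change was 0.23. Il1rap had 3454 ± 377 in Msr1-/- and 2774 ± 856 in wild-type livers and was also lowest in wild type 3, with 1573.

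Gm11789 lies opposite Gcgr, the glucagon receptor gene, at chromosome 11, 120526855 to 120531784, and averaged 636 ± 86.6 in Msr1-/- and 482 ± 49.4 in wild-type livers without overlap (log2 fold change 0.39, limma adjusted p = 0.169). Gcgr averaged 4479 ± 702 in Msr1-/- and 4438 ± 1548 in wild-type livers, a log2 fold change of 0.07. Gm19950 lies opposite Acsm1, a medium-chain acyl-CoA synthetase gene, and averaged 659 ± 94.7 in Msr1-/- and 494 ± 64.5 in wild-type livers (log2 fold change 0.41, limma adjusted p = 0.174), beside 0.17 for Acsm1. Gm15638, opposite Phldb2 and Plcxd2 on chromosome 16, had the negative value among the antisense genes named by smallest p. It averaged 155 ± 28.3 in Msr1-/- and 230.2 ± 46.9 in wild-type livers (log2 fold change -0.57, limma adjusted p = 0.166). Phldb2 had 0.23 and Plcxd2 0.04 on the same scale.

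The remaining long noncoding and unconfirmed transcripts numbered 42, of which 27 had a positive fold change, 2 were called higher by limma and the median log2 fold change was 0.17. Without wild type 3 the direction turned, with 16 of 42 positive and a median of -0.09, and without wild type 4 there were 30 positive with a median of 0.34 and 0 called by limma. Gm19619, a long intergenic RNA of 6 exons at chromosome 5, 91257571 to 91283421, stood at 207, 164, 199, 193 and 85.2 in Msr1-/- livers, against 35.3, 35.9, 181 and 50.3 in wild-type livers. Wild type 3 lay among the Msr1-/- livers and the other wild-type livers below them all (log2 fold change 1.45, SE 0.46, limma adjusted p = 0.151). Without wild type 3, singled out after its values were seen, the log2 fold change was 1.99 with a limma adjusted p of 0.00373. Gm19619 was not called without wild type 1 or 2 (limma adjusted p = 0.279 and 0.273). Its nearest coding gene, Btc, the epidermal growth factor family ligand betacellulin, lies 73840 bases away and was also highest in wild type 3, with 134 against 12.7 to 33.1 in the other wild-type livers. Gm37729, a TEC region within Serpinc1, the antithrombin gene, and on its strand, averaged 87.4 ± 33.3 in Msr1-/- and 41.6 ± 19.1 in wild-type livers (log2 fold change 1.06, limma adjusted p = 0.185). Gm37729 passed the mean of 50 through its Msr1-/- values, with its wild-type mean under 50. Serpinc1 had a log2 fold change of 0.14.

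Gm2788, a processed transcript of 13 exons on chromosome 7 that overlaps E2f8, a cell cycle transcription factor gene, and Nav2, averaged 345 ± 105 in Msr1-/- and 522 ± 147 in wild-type livers (log2 fold change -0.60, limma adjusted p = 0.226). Gm20559 lies 26129 bases from Samd9l, an interferon-induced gene, and averaged 64.4 ± 10.7 in Msr1-/- and 88.8 ± 16.4 in wild-type livers (log2 fold change -0.46, limma adjusted p = 0.246), while Samd9l had -0.14. Of the unmatched symbols, Gm45526, listed by RefSeq as an older symbol of Gm38416, stood at 36.0, 21.5, 40.2, 38.6 and 68.1 in Msr1-/- livers, against 84.5, 139, 34.5 and 84.4 in wild-type livers. Wild type 3 lay among the Msr1-/- livers, and the log2 fold change of -0.98 (limma adjusted p = 0.260) was -1.36 without it (adjusted p = 0.0316 by limma). The other unmatched symbols, Gm45531, Gm21967, Gm6467, Gm15800, Gm28933 and Gm561, had log2 fold changes between -0.43 and 0.41. RefSeq lists Gm15800 as an older symbol of Hectd4 and Gm561 of Smim26, so these are named coding genes under an older symbol.

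**Figure D2:**
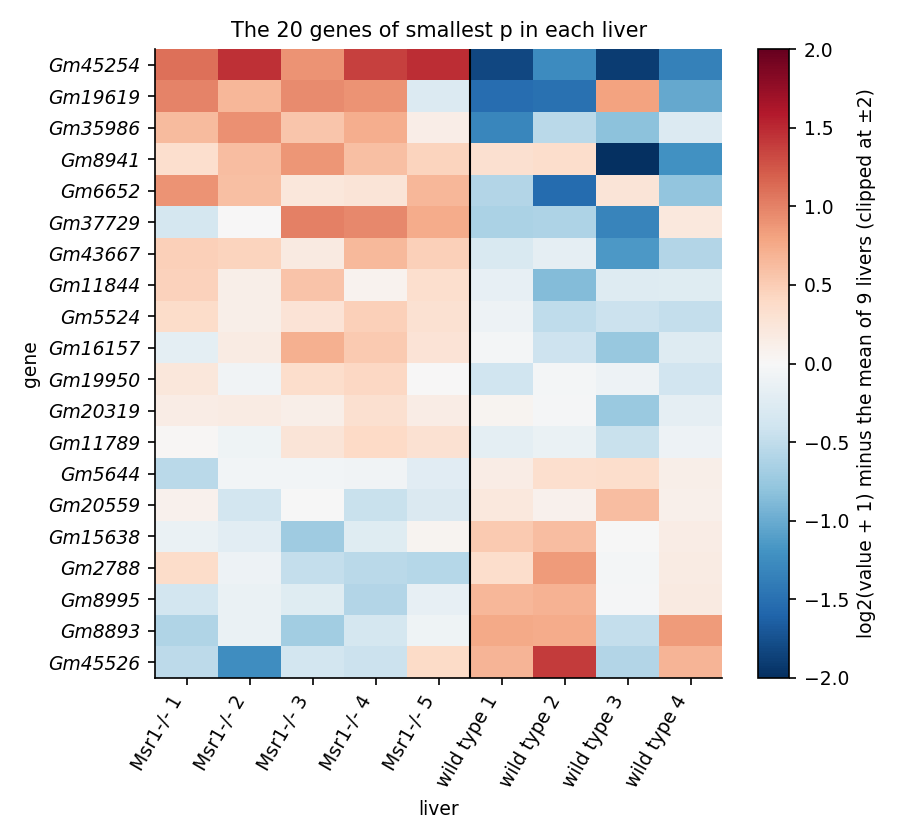
The 20 Gm-numbered genes of smallest p, in rows ordered by log2 fold change, and the 9 livers in columns, with 5 Msr1-/- livers left of the black line and 4 wild-type livers right of it. Colour is log2(value + 1) minus the mean of the 9 livers, and wild type 3 differs from the other wild-type livers in rows such as Gm19619, Gm8893 and Gm45526.

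Copies of coding genes were sought by aligning the longest transcript of each gene to the coding transcripts of genes in the table. A near copy was one at least 85% identical over at least 70% of its own length. There were 58 of these, 25 of ribosomal protein genes and 33 of other genes, and 0 of the 58 were called by limma or edgeR, with 6 at an unadjusted p under 0.05 by limma. DESeq2 called 3 of them, Gm6652, Gm8893 and Gm8995. Copies and parents can exchange reads at high identities, so the counts of both are uncertain there. How far this holds at the lower identities was not tested. Of the 33 other copies, 20 had a positive fold change, with a median of 0.10, and without wild type 3 there were 17 with a median of 0.02. For 32 of them a level per kilobase of annotated exon was at hand for both genes. In 25 of these the copy had a lower level than the coding gene.

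Gm6652 is a processed pseudogene of Sord, the sorbitol dehydrogenase gene of the polyol pathway, at chromosome 1, 153619604 to 153620673, minus strand. It aligned to the Sord messenger over 1070 bases with 6 mismatches and 1 gap base (99.3% identity). A stretch of 100 bases is shown because it holds 3 of the 6 mismatches by which reads of the pair differ, in capitals. The other differences lie outside this stretch. Positions 294 to 393 of the Gm6652 transcript align to 438 to 537 of Sord, both from GENCODE M21.
Gm6652: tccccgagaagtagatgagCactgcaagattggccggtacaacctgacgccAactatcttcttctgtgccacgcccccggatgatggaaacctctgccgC
Sord: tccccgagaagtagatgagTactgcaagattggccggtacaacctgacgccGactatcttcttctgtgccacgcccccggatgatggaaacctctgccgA

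In that stretch the copy and its parent differ at 3 bases. Gm6652 stood at 119, 96.9, 74.0, 76.0 and 100.2 in Msr1-/- livers, against 41.7, 21.1, 76.1 and 36.0 in wild-type livers. Only wild type 3 reached the Msr1-/- values. The means were 93.1 ± 18.6 in Msr1-/- and 43.7 ± 23.3 in wild-type livers (log2 fold change 1.19, SE 0.31, limma adjusted p = 0.0885). With wild type 3 left out, a liver singled out after its values were seen, the log2 fold change was 1.503 (limma adjusted p = 0.00753). Sord averaged 27729 ± 2563 in Msr1-/- and 20440 ± 4869.5 in wild-type livers (log2 fold change 0.47, limma adjusted p = 0.258). Wild type 3 was the lowest liver for Sord, with 13265, and the highest wild-type liver for its copy. Per kilobase of annotated exon, Sord had a level of 11790 in Msr1-/- livers, against 87.0 for Gm6652.

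Gm8893 is an unprocessed pseudogene of 4 exons at chromosome 12, 103817856 to 103822243, minus strand, in the cluster of alpha-1 antitrypsin genes. It lies within the annotated span of Serpina1b without sharing an exon base, and its sequence matched Serpina1a best, at 98.8% identity. Gm8893 stood at 181, 252, 169.8, 218 and 259 in Msr1-/- livers, against 467, 463, 198 and 498 in wild-type livers. The other wild-type livers were all above the Msr1-/- livers, and wild type 3 lay among these. The means were 216 ± 40.5 in Msr1-/- and 407 ± 139.7 in wild-type livers (log2 fold change -0.84, SE 0.26, limma adjusted p = 0.151). The other 3 wild-type livers, singled out after their values were seen, averaged 476 ± 19.1 (n = 3). Against them alone the log2 fold change was -1.16 (limma adjusted p = 0.00339). Serpina1a overlapped between genotypes, with 32002 ± 6047 in Msr1-/- and 35247 ± 12038 in wild-type livers (log2 fold change -0.08, limma adjusted p = 0.939).

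Gm8995, at chromosome 7, 106504239 to 106511671, is a transcribed unprocessed pseudogene whose transcript of 7280 bases matches Gvin1 at 91.8% identity over 99.9% of its length. Gvin1 belongs to the very large interferon-inducible GTPases. Gm8995 stood at 92.2, 108, 100.5, 78.3 and 105 in Msr1-/- livers, against 189, 192, 116 and 134 in wild-type livers, without overlap between genotypes (log2 fold change -0.68, SE 0.18, limma adjusted p = 0.0970). Gvin1 itself had a mean of 2.57 ± 1.93 in Msr1-/- and 16.6 ± 7.35 in wild-type livers and was under the mean of 10 needed for the test. The 14 tested interferon-inducible GTPases of a separate list had 6 positive and 8 negative fold changes, 0 called, with a median of -0.02 (2 lower and 0 higher at an unadjusted p under 0.05 by limma). The Kupffer cell markers given above were lower in the same livers, and their part in the values of Gm8995 was not tested.

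Gm8941, a processed pseudogene on chromosome 1 that matches Gapdh, the glycolytic glyceraldehyde 3-phosphate dehydrogenase gene, at 87.2% identity, stood at 209.8, 253, 305, 253 and 225 in Msr1-/- livers, against 207, 211, 32.2 and 71.2 in wild-type livers. Wild types 1 and 2 lay beside the Msr1-/- livers and wild types 3 and 4 far below (log2 fold change 1.29, SE 0.47, limma adjusted p = 0.214). With wild type 3 left out the log2 fold change was 0.75. Gapdh averaged 10725 ± 1349 in Msr1-/- and 7207 ± 748 in wild-type livers (log2 fold change 0.57, limma adjusted p = 0.0651). Another Gapdh match, Gm3839, chosen after its values were seen, had a log2 fold change of -0.19. Gm5644, a processed copy of Pfdn5, a prefoldin subunit gene, on chromosome X, averaged 46.7 ± 6.45 in Msr1-/- and 63.1 ± 5.53 in wild-type livers without overlap (log2 fold change -0.43, limma adjusted p = 0.240), beside -0.27 for Pfdn5. It passed the minimum through its wild-type values, with its Msr1-/- mean under the minimum. The miRNA-type entry Gm27463, chosen after its values were seen, covers 57 bases on chromosome 15 that match the transcript of Cyp2d40, a cytochrome P450 gene, at 98.2% identity. Its 158 ± 46.0 in Msr1-/- and 110.1 ± 72.1 in wild-type livers therefore cannot be assigned to a small RNA.

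**Figure D3:**
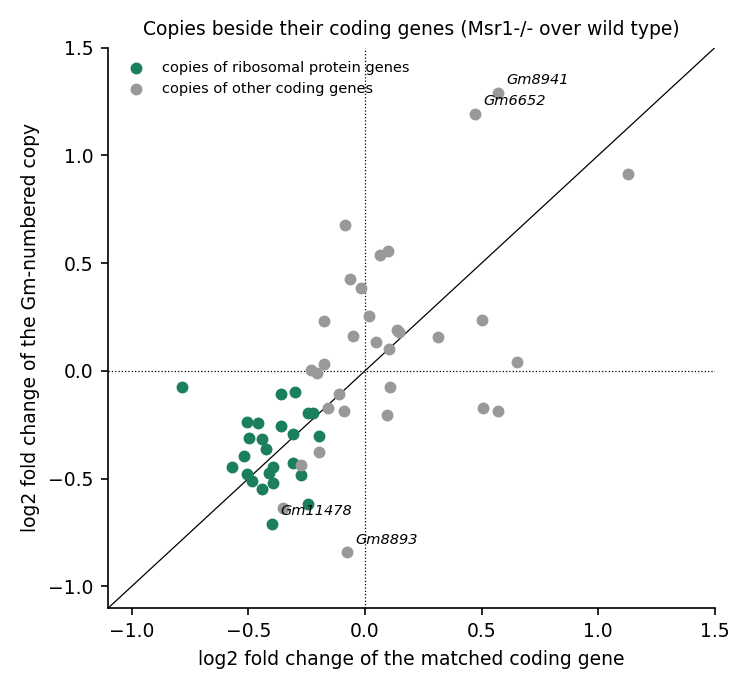
Log2 fold changes (Msr1-/- over wild type, of value + 1) of the Gm-numbered copies on the vertical axis and of the coding genes they match on the horizontal axis, for pairs in which both were tested, with the line of equality. The 25 ribosomal protein copies, in green, lie in the lower left quadrant, Gm6652 and Gm8941 lie above the line and Gm8893 lies below it.

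The 25 copies of ribosomal protein genes matched 22 coding genes at 94.7% identity or more, 16 of them at 99% or more, and 24 have a single exon. All 25 had a negative fold change, between -0.71 and -0.08 with a median of -0.36 on the log2 scale, but 0 were called and 0 had an unadjusted p under 0.05 by limma (0 called by edgeR and DESeq2 as well). Over all genes tested the median was 0.02 and 52.7% were positive. The 22 coding genes also had negative fold changes in 22 of 22 cases, with a median of -0.42, and 2 of them, Rps3a1 and Rpl23, were called lower by limma, against 10 called without wild type 3 and 1 without wild type 4. Among all 78 tested genes of cytosolic ribosomal proteins, 78 were negative and 7 were called lower, with a median of -0.42. How reads that fit both a copy and its parent were counted is not given in the sources used here, so the fold changes of copies and parents may not be separate measurements.

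Rpl23, a large subunit protein gene, averaged 3384 ± 249 in Msr1-/- and 4854 ± 368 in wild-type livers (log2 fold change -0.52, limma adjusted p = 0.0410). Its copy Gm9794, at 99.8% identity, averaged 87.6 in Msr1-/- and 116 in wild-type livers (log2 fold change -0.39, limma adjusted p = 0.517). Rps3a1, a small subunit protein gene, averaged 2107 ± 116 in Msr1-/- and 2978 ± 289.9 in wild-type livers (log2 fold change -0.50, limma adjusted p = 0.0434), and its copy Gm5586 averaged 44.4 in Msr1-/- and 61.2 in wild-type livers (log2 fold change -0.31, limma adjusted p = 0.808). Per kilobase of annotated exon, joined over all transcripts of a gene, 23 of the 25 copies had a lower level than the coding gene. Gm11478 was one of the exceptions, and it and the copies above were chosen after their values were seen.

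Gm11478, a processed pseudogene of Rpl13a at chromosome 11, 86630428 to 86631026, minus strand, lies in the span of Vmp1. It aligned to the Rpl13a messenger over 600 bases with 8 mismatches and 4 gap bases. The stretch runs from 257 to 356 of Gm11478 and from 317 to 416 of Rpl13a (GENCODE M21), with the 3 differing bases in capitals. It is shown because here the copy had the higher level per kilobase of annotated exon.
Gm11478: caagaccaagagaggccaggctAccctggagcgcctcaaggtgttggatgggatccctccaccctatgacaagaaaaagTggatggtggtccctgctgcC
Rpl13a: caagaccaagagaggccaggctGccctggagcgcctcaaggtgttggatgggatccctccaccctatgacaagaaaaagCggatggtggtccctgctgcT

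Gm11478 stood at 159, 178, 230.1, 426 and 254 in Msr1-/- livers, against 324, 486, 209 and 659 in wild-type livers. The genotypes overlapped, and wild type 4 and Msr1-/- 4 were the highest livers of their genotypes. Per kilobase the copy had 416 in Msr1-/- and 700.5 in wild-type livers, and Rpl13a had 139 in Msr1-/- and 182 in wild-type livers. The exon length used was 599 bases for the copy and 2114 for Rpl13a, joined over all transcripts. In Msr1-/- livers the order of the pair rests on these lengths, and levels per length of a single transcript were not tested.

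Summed over the 25 copies, the normalised read counts were 1574, 1817, 2204, 3788 and 2568 in Msr1-/- livers, against 2421, 3584, 1865 and 4984 in wild-type livers. These sums overlapped between genotypes, and within each genotype the liver numbered 4 was the highest. Summed over the 22 coding genes they were 38948, 46633, 43607, 51962 and 47962 in Msr1-/- livers, against 59836, 64226, 57317 and 58604 in wild-type livers, without overlap. The copies came to 4.04%, 3.90%, 5.05%, 7.29% and 5.35% of the coding sum in Msr1-/- livers, against 4.05%, 5.58%, 3.25% and 8.51% in wild-type livers. That share differed between livers of the same genotype by more than it did between genotypes, and wild type 4 was the highest of the 9 livers for 21 of the 25 copies. Without wild type 4 the median of the copies was -0.19 with 17 of 25 negative, and without wild type 3 it was -0.64 with 25 of 25 negative and 9 at an unadjusted p under 0.05 by limma.

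**Figure D4:**
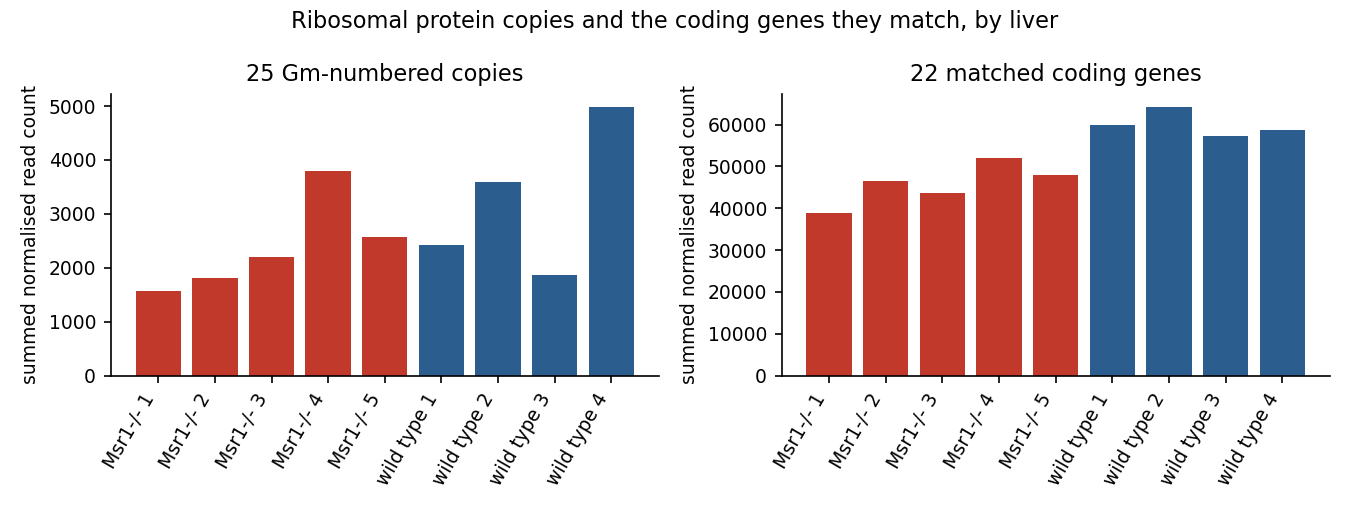
Summed normalised read counts of the 25 Gm-numbered copies of ribosomal protein genes (left panel) and of the 22 coding genes they match (right panel), one bar per liver, with Msr1-/- livers in red and wild-type livers in blue. The coding sums of Msr1-/- livers, 38948 to 51962, lie below those of wild-type livers, 57317 to 64226, and the sums of the copies overlap.

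The most abundant of the 156 genes, the 8 with the highest mean count, were not called. Gm4788 is annotated as a coding gene of 15 exons at chromosome 1, 139697623 to 139781243. It stood at 4464, 3338, 2718, 3488 and 3763 in Msr1-/- livers, against 4654, 3603, 2301 and 2143 in wild-type livers, with wide overlap (log2 fold change 0.22, limma adjusted p = 0.741). Gm4756, a coding gene on chromosome 12 that overlaps Pcnx4 and matches Dhrs7, a short-chain dehydrogenase gene, in part, stood at 1398, 1289, 1336, 1643 and 1649 in Msr1-/- livers, against 1300.3, 1129.9, 449 and 1274 in wild-type livers. Wild type 3 was the lowest by far, and the log2 fold change of 0.60 (limma adjusted p = 0.334) was 0.24 without it.

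Gm4952 is a coding gene 5057 bases from Glyat, the glycine N-acyltransferase gene, at chromosome 19, 12599974 to 12628251. It stood at 1446, 1403, 1261, 1464 and 1245 in Msr1-/- livers, against 984, 502, 1144 and 1265 in wild-type livers (log2 fold change 0.56, SE 0.23, limma adjusted p = 0.265). Wild type 2 was the lowest and wild type 4 lay among the Msr1-/- livers, while Glyat had a log2 fold change of 0.00. Gm44250, a TEC region 366 bases from Pon3, a paraoxonase gene, averaged 1172 ± 269 in Msr1-/- and 1078 ± 260.4 in wild-type livers (log2 fold change 0.12, limma adjusted p = 0.845). Gm13775, a transcript in the cluster of major urinary protein genes on chromosome 4, averaged 909 ± 219 in Msr1-/- and 827 ± 253 in wild-type livers (log2 fold change 0.15, limma adjusted p = 0.844).

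Gm5096, a single-exon gene on chromosome 18 annotated as coding, matches Bhmt, the gene of betaine-homocysteine methyltransferase, at 99.4% identity. It stood at 397, 515, 1209, 2465 and 643 in Msr1-/- livers, against 575, 699, 275 and 2231 in wild-type livers. The spread within a genotype was far larger than the difference between them, and again the liver numbered 4 was the highest of each (log2 fold change 0.23, SE 0.62, limma adjusted p = 0.913). Bhmt stood at 13478, 15427, 26028, 36958 and 12849 in Msr1-/- livers, against 15710, 11437, 9061 and 20566 in wild-type livers, with the same livers highest. Gm4951, listed by RefSeq also as Ifgga2, is an interferon-inducible GTPase gene on chromosome 18 whose closest coding match is Iigp1. It averaged 934 ± 212 in Msr1-/- and 731 ± 291 in wild-type livers (log2 fold change 0.41, limma adjusted p = 0.491), beside 0.11 for Iigp1. Per kilobase of annotated exon, the highest of these abundant genes were Gm13775 with 1210 in Msr1-/- and 1101 in wild-type livers, Gm4788 with 1115 in Msr1-/- and 996 in wild-type livers, and Gm20319 with 944 in Msr1-/- and 728 in wild-type livers. The first pair did not differ beyond the SD of either gene.

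Gm26917 and Gm15564 are loci listed here as signs of ribosomal RNA left in a library. Gm26917 stood at 550.0, 569.5, 546, 651 and 754 in Msr1-/- livers, against 451, 594, 409.5 and 733 in wild-type livers (log2 fold change 0.19, limma adjusted p = 0.687). Gm15564, also counted above among the antisense genes, stood at 159, 188, 183, 156 and 148 in Msr1-/- livers, against 274, 172, 84.7 and 276 in wild-type livers (log2 fold change -0.13, limma adjusted p = 0.895). The genotypes overlapped for both genes, and wild type 3 was the lowest liver for both. Gm12258, a coding gene on chromosome 11 and the last inside the minimum, averaged 57.2 ± 7.22 in Msr1-/- and 41.8 ± 17.7 in wild-type livers (log2 fold change 0.56, limma adjusted p = 0.442).

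By kind, coding genes without a near copy had 10 of 12 positive fold changes (median 0.29) and other pseudogenes 7 of 7 (median 0.33), with 0 called in either class by limma and 1 and 0 of them at an unadjusted p under 0.05. Without wild type 3 these counts were 9 of 12 (median 0.08) and 4 of 7 (median 0.04). Over all 156 genes 89 were positive with wild type 3 and 64 without it. Wild type 3 was singled out after the values were seen. Without it, 12 of the 156 genes were called, 7 higher and 5 lower, against 2.59% and 2.32% of all genes. They were the 4 genes above and Gm6652, Gm8893, Gm8995, Gm19619 and Gm45526, with Gm12696, Gm16548 and Gm16551, these last ones chosen after their values were seen. Gm12696 is a processed copy of Hnrnpc, an RNA-binding protein gene, with a log2 fold change of 0.98 without wild type 3 and 0.68 with it.

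**Figure D5:**
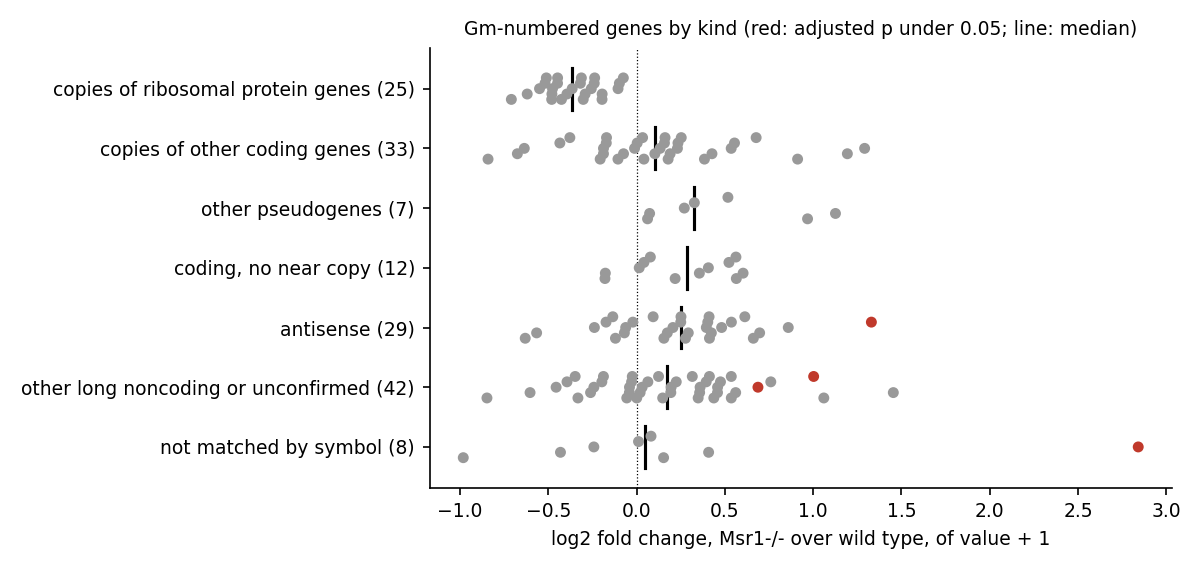
Log2 fold changes (Msr1-/- over wild type, of value + 1) of the 156 genes, in rows by kind with the number of genes in brackets, red where the limma adjusted p was under 0.05, and a black line at the median of each row. The copies of ribosomal protein genes lie below 0 with a median of -0.36, and the called genes lie in the rows of antisense, other long noncoding or unconfirmed and unmatched genes.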

How the data were processed

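Whole-liver RNA libraries of 5 Msr1-/- and 4 wild-type mice were prepared with TruSeq RNA reagents, per the labels' protocols. The submitters' processing notes list STAR, HTSeq, DESeq2 and mm10, with versions not given in the sources used here. The values deposited by the authors are a normalised signal, in which the read count of a gene was divided by 1 size factor for each liver. All columns matched a labelled animal. Each value was a whole multiple of 1 step within 0.01 reads (100% of values), which gave back 15006773 to 18238932 reads per liver. Depth limits counting error alone, and precision rests on how far mice of a genotype differ. No library pair was a duplicate (lowest chi-square per degree of freedom 21.6).

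limma 3.58.1 in R 4.3.3 was run with an intensity trend on log2(value + 1), genotype as the only term, for 12937 genes with a mean of 10 or more, and Benjamini-Hochberg adjusted p under 0.05 called a gene. Fold changes, SE and adjusted p values are limma's, Msr1-/- over wild type. On the recovered reads edgeR 4.0.16 (quasi-likelihood) called 185 and DESeq2 1.42.0 called 773 genes. Other alternatives were pseudocounts of 0.5 and 5, no filter, a mean of 50, TMM, the animal number as a block, each liver left out, and membership at a mean of 100. The limma step was tested on simulated data.

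GENCODE M21 (GRCm38) was matched by symbol. The longest transcripts were aligned with blastn 2.17.0 to coding transcripts listed in the table. Sequences are from GENCODE M21 and RefSeq GRCm38.p6. Members, gene lists and tests were chosen with earlier results of these data known. Named genes are those called, then by p up to 20, the 8 of highest mean, those in a list, the ones beside the minimum, and the coding gene that overlaps or best matches each. Same-numbered animals were not treated as pairs, since the labels give no shared origin. Some coding matches and 1 aligned sequence pair are not reported here.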

Additional observations from a re-analysis of the deposited data

Results flagged for a closer look

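In 4 of 68 groups of livers looked at, 1 liver lay far from the others by Dixon's test. For independent groups chance gives about 1 in 20. The groups share the same livers and many of their genes were named by small p, so that rate does not apply directly. Gm8893 was 198.5 in wild type 3, with the next wild-type liver at 463.2. Gm19619 was 181.2 in wild type 3, the highest of the wild-type livers, with the next at 50.28. Gm11844 was 37.98 in wild type 2, the lowest of the wild-type livers, with the next at 58.05. Gm20319 was 1165 in Msr1-/- 4, the highest of the Msr1-/- livers, with the next at 1055.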

How the results depend on the processing

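The count of 4 called genes held with pseudocounts of 0.5 and 5, no filter, a mean of 50, TMM, edgeR and membership at a mean of 100. It was 9 by DESeq2 (7 higher, 2 lower), where the same 4 were called. It lay between 1 and 12 with each liver left out: 1 without any of Msr1-/- 1 to 4, 2 without Msr1-/- 5 or wild type 4, 3 without wild type 1 or 2, and 12 without wild type 3. Of the 4, between 1 and 4 stayed called, Gm45254 in all runs. With the animal number as a replicate block the count was 1, Gm45254, and 10 genes over the whole table, and the 3 other calls were lost. That fit also lacked Msr1-/- 5, which has no same-numbered wild-type animal. Leaving out Msr1-/- 5 without a block gave 2 called genes and 65 over the whole table. Deviations of same-numbered animals correlated at 0.0246, -0.077, -0.102 and 0.218. Each value rests on 1 pair of livers, so these values cannot decide whether same-numbered animals shared a batch. The labels give no shared origin, so the numbers were not used as pairs. Gm5096 turned negative without Msr1-/- 4 (-0.158) or wild type 3 (-0.218), with values up to 0.788 over the livers left out. Gm15564 turned positive without wild type 1 (0.0598) or wild type 4 (0.0638), with values down to -0.5003, and the cause was not tested. Of 510 comparisons over the 30 named genes, 475 kept their direction and side of the threshold, 10 gained a call, 21 lost one and 4 reversed. Only the 4 called genes had a call to lose, and all 21 losses were among the 3 besides Gm45254. The count of 475 is therefore mostly of genes that were not called. The median of ribosomal protein copies lay between -0.64 and -0.19 over all settings. Low counts limit the genes near a mean of 50.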
